A study of Mus musculus with 16 samples.

Results

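The nuclear genes of oxidative phosphorylation were examined in liver RNA of 16 male mice, sequenced with 1 library per mouse. A gene was a member when its symbol began with Nduf and a, b, c, s or v, with Uqcr, with Cox and a digit from 4 to 8 or with Atp5, or was Sdha, Sdhb, Sdhc or Sdhd, and when its mean over the mice reached 0.1 FPKM (fragments per kilobase of transcript, scaled to the fragments of the library). The symbols matched 93 of 17003 genes. Of these, 90 passed the level of 0.1 FPKM, as did 12770 genes of the whole table, and no difference between mice entered the choice. Just below the level lay Cox4i2 (0.0788 FPKM), Cox8b (0.0325 FPKM) and Cox6a2 (0.0269 FPKM), and just above it Cox6b2 (0.412 FPKM). The 90 genes were 37 subunits of complex I, 4 of complex II, 8 of complex III, 15 genes of complex IV and 17 of complex V, with 8 assembly factors of complex I (Ndufaf1 to Ndufaf8), which share the letters of the subunits but do not remain in the enzyme, and Ndufb4c, a copy of Ndufb4.

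The 8 Fgl1 LWT mice had floxed Fgl1 alleles and no CRE, and the 8 Fgl1 LKO mice were littermates in which CRE under the albumin promoter removed Fgl1 from hepatocytes, so that other liver cells kept the gene. All were males of 8 weeks, labelled as fed, from a colony kept on standard chow. Fgl1, which encodes a protein secreted by hepatocytes, lay at 157.8 to 1330.72 FPKM in Fgl1 LWT and at 13.23 to 89.99 FPKM in Fgl1 LKO livers, without overlap. Its mean was 9.71 times higher in Fgl1 LWT livers (limma adjusted p = 0.0725; two-sided exact permutation p = 0.000155, the lowest possible with 8 against 8), and reads outside the deleted exon still count towards it. The 5 hepatocyte markers Alb, Apoa1, Ttr, Cps1 and Cyp2e1 summed to 47039.1 to 86998.4 FPKM. Of the skeletal muscle and adipocyte markers, Ckm, Myh4, Ucp1 and Plin1 were at 0 in all 16 livers and no other exceeded 0.32 FPKM. In bulk RNA, fewer cells of a type and less RNA per cell cannot be told apart. Mouse numbers in the labels form 4 runs, and that from 36 to 38 has 3 Fgl1 LWT mice and no Fgl1 LKO mouse.

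Oxidative phosphorylation takes place in the inner mitochondrial membrane. Complex I takes electrons from NADH, and complex II takes them from succinate as a step of the tricarboxylic acid cycle. Both pass them to ubiquinone, complex III hands them on to cytochrome c, and complex IV gives them to oxygen. Complexes I, III and IV move protons across the membrane, and complex V, the ATP synthase, uses their return to make ATP. Some subunits are encoded in mitochondrial DNA and were not analysed here, whereas complex II is encoded by nuclear genes alone. In hepatocytes the ATP serves costly pathways such as gluconeogenesis and urea synthesis.

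Nuclear respiratory genes are known for shared promoter motifs, and the promoters were read because the transcripts of these genes moved together from liver to liver. RefSeq sequence (GRCm38.p6) from 250 bases before to 50 bases after the start of transcription was found for 75 of the 90 members. On either strand, the letters GCGCANGCG of the nuclear respiratory factor NRF1 were present in 22 of these promoters (29.3%), against 14.6% of the promoters of 10258 genes that passed 0.1 FPKM and 7.03% of all 27025. CCGGAAG, for ETS factors such as GABPA, was present in 19 (25.3%, against 19.5% and 9.93%). AAGATGGCG, for YY1, was present in 8 (10.7%, against 3.43% and 1.64%). At least 1 of these 3 motifs was in 40 promoters (53.3%, against 32.8% and 16.5%). TCAAGGTCA, for the oestrogen-related receptors, was in those of Sdhd and Atp5g3. Such a match is a run of letters and was not tested as a binding site.

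By complex, the NRF1 letters were in 8 of 33 promoters of complex I subunits, 2 of 3 of complex II, 2 of 5 of complex III, 1 of 12 of complex IV and 7 of 15 of complex V. The 250 bases before the start are shown for 4 genes, 1 from each of 4 complexes, and complex III is not shown. Each was picked for the most separate stretches of motif letters there in its complex, the first by symbol on a tie. They therefore do not stand for the other members. These are Ndufb4 (chr16:37654369-37654618), Sdha (chr13:74350241-74350490), Cox6a1 (chr5:115348959-115349208) and Atp5h (chr11:115419920-115420169), all on the minus strand of GRCm38.p6. They run 5′ to 3′ along the gene, and capitals mark NRF1 and ETS letters on either strand.
Ndufb4: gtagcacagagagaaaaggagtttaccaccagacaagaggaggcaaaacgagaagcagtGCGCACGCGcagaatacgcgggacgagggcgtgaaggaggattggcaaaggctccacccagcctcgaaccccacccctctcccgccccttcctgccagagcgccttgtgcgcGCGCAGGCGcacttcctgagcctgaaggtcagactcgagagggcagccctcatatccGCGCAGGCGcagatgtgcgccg
Sdha: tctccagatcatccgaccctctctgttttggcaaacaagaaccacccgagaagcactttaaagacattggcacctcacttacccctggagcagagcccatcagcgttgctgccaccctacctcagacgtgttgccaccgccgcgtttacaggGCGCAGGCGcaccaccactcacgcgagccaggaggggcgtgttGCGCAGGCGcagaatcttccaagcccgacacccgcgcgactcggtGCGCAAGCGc
Cox6a1: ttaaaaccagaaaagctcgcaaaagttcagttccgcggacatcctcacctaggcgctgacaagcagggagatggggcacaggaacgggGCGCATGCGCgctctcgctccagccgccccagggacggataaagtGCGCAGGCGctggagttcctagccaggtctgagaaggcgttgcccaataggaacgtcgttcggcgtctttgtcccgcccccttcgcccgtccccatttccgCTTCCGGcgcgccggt
Atp5h: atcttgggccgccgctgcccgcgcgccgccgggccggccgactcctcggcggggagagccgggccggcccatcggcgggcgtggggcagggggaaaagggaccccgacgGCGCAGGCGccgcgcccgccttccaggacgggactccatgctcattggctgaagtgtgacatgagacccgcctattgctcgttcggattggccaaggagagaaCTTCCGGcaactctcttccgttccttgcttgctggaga
Ndufb4 and Sdha each hold 3 separate NRF1 stretches. Across livers, Ndufb4 had a Pearson r of 0.01 with the mean of the other members. Its values are uncertain, because reads can fit its copy Ndufb4c as well. A relation of motifs to co-variation was not tested. Cox6a1 holds 1 palindromic stretch that matches on both strands, another NRF1 stretch and 1 ETS match, and Atp5h holds 1 of each motif.

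Per gene, complexes V and IV were the most abundant, with means of 405.0 and 394.9 FPKM per gene. Their order depends on the measure, since the mean of complex IV includes 3 scarce isoforms. By the median over genes, complex IV (359.8 FPKM) lay above complex V (323.7 FPKM). Complex III followed with 276.1 FPKM, complex II with 162.0 FPKM and the subunits of complex I with 139.8 FPKM, and the assembly factors of complex I were far lower, at 12.7 FPKM. The members summed to 18659.7 to 24047.0 FPKM per liver, or 2.53% to 3.40% of all FPKM of that liver. The sums were 21164.3 ± 1521.9 FPKM in Fgl1 LWT and 21015.0 ± 1822.4 FPKM in Fgl1 LKO livers (SD over 8 mice each), a difference smaller than the spread within either genotype.

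**Figure D1:**
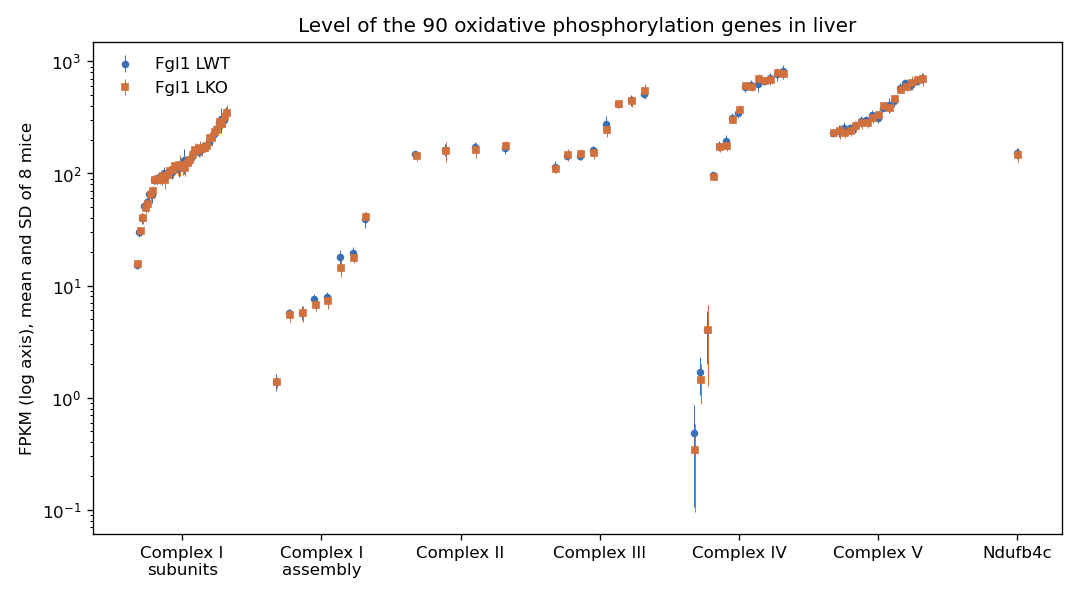
Mean level of each member in FPKM (log axis) in Fgl1 LWT (circles) and Fgl1 LKO (squares) livers, with SD bars over 8 mice each, ordered by level within each complex. Genotypes lie on each other, and the assembly factors and 3 isoforms of complex IV (Cox7a1, Ndufa4l2 and Cox6b2) sit far below most subunits.

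In complex I, the highest members were the supernumerary subunits Ndufa3 (346.0 FPKM), Ndufa6 (308.6 FPKM) and Ndufb1 (289.6 FPKM), and the lowest was Ndufa11 (15.4 FPKM). The core subunits, which carry out electron transfer, came lower. Ndufs3 was at 123.5 FPKM and Ndufv1, which binds NADH, at 104.4 FPKM. The iron-sulfur subunits Ndufs7 and Ndufs8 were at 94.2 FPKM and 87.8 FPKM. Ndufv2 (50.5 FPKM) and Ndufs1 (39.9 FPKM), the largest subunit, were the lowest of the core subunits. The 37 subunits summed to 5159.4 ± 332.1 FPKM in Fgl1 LWT and 5185.6 ± 528.5 FPKM in Fgl1 LKO livers (SD over 8 mice each).

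The 4 subunits of complex II lay close together. Sdha, the flavoprotein that oxidises succinate, was at 173.0 FPKM and Sdhb, the iron-sulfur subunit, at 161.7 FPKM. The membrane anchors Sdhc and Sdhd were at 145.9 FPKM and 167.4 FPKM. In complex III the small subunits Uqcr11 (525.8 FPKM), Uqcr10 (446.3 FPKM) and Uqcrh (416.9 FPKM) were the highest and Uqcrc2, a core protein, the lowest (112.8 FPKM). Uqcrfs1, the Rieske iron-sulfur protein, was at 155.7 FPKM. Outside the symbol rule, Cyc1, the cytochrome of complex III, was at 131.1 ± 15.1 and 132.6 ± 17.4 FPKM in Fgl1 LWT and Fgl1 LKO livers, and Cycs, the mobile cytochrome c, at 34.0 ± 3.43 and 34.1 ± 3.9 FPKM (SD over 8 mice each).

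Complex IV showed 1 dominant form in each family of isoforms. Ndufa4 (795.5 FPKM), a subunit first assigned to complex I, Cox7c (775.2 FPKM) and Cox6b1 (690.9 FPKM) were the highest. Cox4i1 was at 673.1 FPKM and Cox4i2, a form known from lung, at 0.0788 FPKM. Cox6a1 was at 661.0 FPKM and its heart and muscle partner Cox6a2 at 0.0269 FPKM. Cox8a was at 597.7 FPKM and the muscle form Cox8b at 0.0325 FPKM. Cox6b2, a testis form, was at 0.412 FPKM, the lowest of the members, and Ndufa4l2, known to respond to low oxygen, at 1.56 FPKM. Cox7b was at 185.9 FPKM, and Cox7a2l, a factor of respiratory supercomplexes, at 94.9 FPKM.

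Cox7a1, the heart and muscle partner of Cox7a2 (173.2 FPKM), was higher than the other muscle forms, with a mean of 3.98 FPKM. It lay at 1.54 to 6.72 FPKM in Fgl1 LWT mice (median 3.9) and at 0.0 to 7.34 FPKM in Fgl1 LKO mice (median 3.13). The genotypes overlapped almost wholly, and 15 of 16 livers were above 0, the exception being Fgl1 LKO replicate 6. The 95% confidence interval of the difference, from -0.94 to 0.65 on the log2(FPKM + 1) scale, was the widest of the 90. Beside it, the skeletal muscle markers summed to at most 0.14 FPKM and the brown adipocyte markers to at most 0.32 FPKM in any liver. The smooth muscle markers Myh11, Acta2 and Tagln summed to 3.34 to 11.8 FPKM in Fgl1 LWT and to at least 3.72 FPKM in each Fgl1 LKO liver, and the highest single one reached 10.8 FPKM. Their part in the level of Cox7a1 was not tested.

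Complex V was led by Atp5g3 (703.4 FPKM), Atp5b (677.0 FPKM), the catalytic beta subunit, and Atp5k (634.6 FPKM), a small membrane subunit. Subunit c, which builds the rotating ring, has 3 genes known to encode the same mature protein. Of these, Atp5g3 stood well above Atp5g1 (239.2 FPKM) and Atp5g2 (230.2 FPKM), and Atp5g2 was the lowest gene of the complex. Atpif1, the inhibitor of the synthase, falls outside the symbol rule and lay at 8.49 ± 1.24 and 8.1 ± 1.46 FPKM in Fgl1 LWT and Fgl1 LKO livers (SD over 8 mice each, limma adjusted p = 0.891).

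Among the assembly factors, levels ran from Ndufaf8 (39.8 FPKM), Ndufaf1 (18.5 FPKM) and Ndufaf2 (16.2 FPKM) down to Ndufaf5 (1.38 FPKM). Ndufb4c (150.1 FPKM) is annotated in GRCm39 as a transcribed processed pseudogene with 1 exon of 390 bases on chromosome 15 (73681356 to 73681745). All 341 runs of 50 bases in its transcript are also in the 971 bases of the Ndufb4 transcript (chromosome 16, 37467242 to 37474815). Reads from there fit both genes, so the values of Ndufb4 and Ndufb4c are uncertain.

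The genotypes were compared to see whether loss of hepatocyte Fgl1 altered respiratory chain transcripts. In limma, 0 of the 90 members passed an adjusted p of 0.05, where 0.0% of the 12770 genes did. At an unadjusted p of 0.05, 1 member was lower in Fgl1 LKO livers and 0 were higher. Of all genes, 7.01% were below that p in either direction, with 2.36% lower and 4.64% higher. The genotypes overlapped in each of the 90, whereas 0.0157% of genes did not overlap. The median log2 difference, Fgl1 LKO minus Fgl1 LWT, was -0.014 over the members and 0.014 over all genes. It lay below 0 in 51 members (56.7%), against 44.2% of genes, and the median became 0.01 without Fgl1 LWT replicate 6 or without Fgl1 LKO replicate 5. The number lower at an unadjusted p of 0.05 became 7 without Fgl1 LWT replicate 5 and 5 with scaling by median ratios. It was 4 without Fgl1 LKO replicate 3 or 4, 3 without Fgl1 LWT replicate 1, 4 or 7, and 2 without Fgl1 LWT replicate 3 or Fgl1 LKO replicate 1. The number higher became 2 without Fgl1 LKO replicate 5 or with no filter on low values, which adds the 3 genes below 0.1 FPKM, and 1 without Fgl1 LWT replicate 1. In percent, the members lower were 7.78% without Fgl1 LWT replicate 5, where 3.85% of all genes were, and 5.56% with median ratios, where 4.07% were. With the other livers named left out, 2.22% to 4.44% of members were lower, and 2.03% to 3.32% of all genes were. The members higher were at most 2.22%, where 4.02% to 4.97% of all genes were.

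The intervals give the size of change that 8 against 8 mice leave possible. For the 82 members of at least 10 FPKM, the bounds of the 95% confidence intervals reached no further than -0.52 and 0.36 on the log2(FPKM + 1) scale. For scarcer members the scale compresses changes, and their intervals are not read as folds. Of the Kupffer cell markers, 2 of 4 were higher in Fgl1 LKO livers at an unadjusted p of 0.05, where 4.64% of all genes were. The 4 markers summed to 50.6 to 106.1 FPKM in Fgl1 LWT and 61.8 to 134.3 FPKM in Fgl1 LKO livers. Their part in the differences of the members was not tested.

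**Figure D2:**
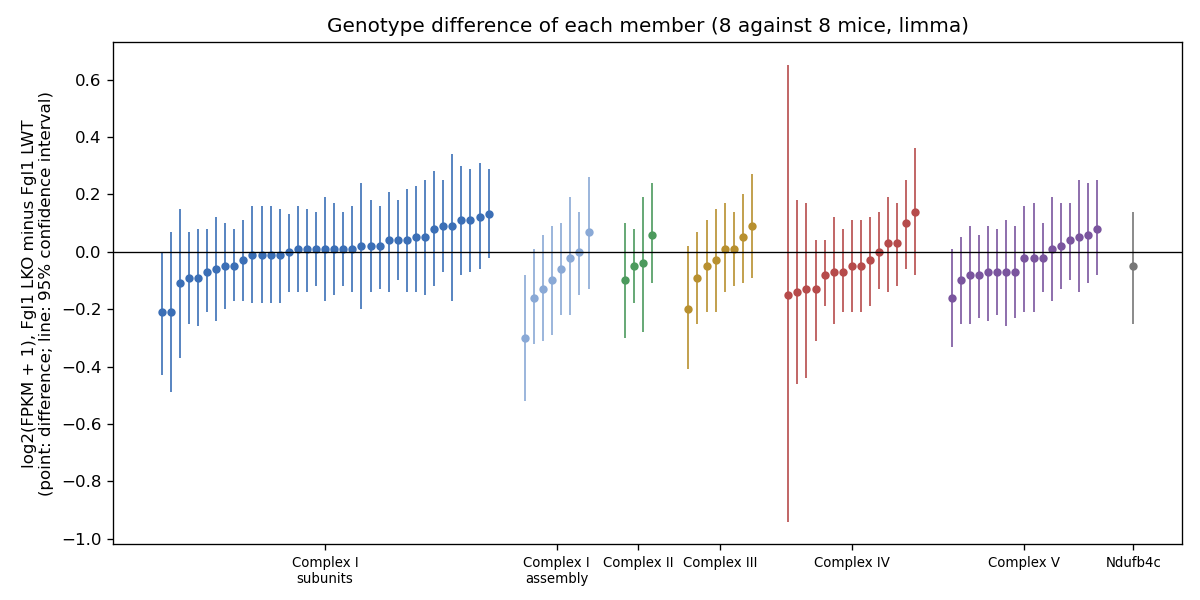
Difference in log2(FPKM + 1), Fgl1 LKO minus Fgl1 LWT, of each member (points) with its 95% confidence interval (lines), ordered within each complex. The interval of Ndufaf2, an assembly factor, runs from -0.52 to -0.08 and is the 1 interval wholly on one side of 0, and that of Cox7a1 in complex IV is the widest.

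By complex, the median difference was 0.012 over the subunits of complex I (22 above 0 and 15 below) and -0.048 in complex II (1 and 3). It was -0.009 in complex III (4 and 4), -0.050 in complex IV (5 and 10), -0.024 in complex V (6 and 11) and -0.082 among the assembly factors (1 and 7). The summed level in Fgl1 LKO was 1.01 times that in Fgl1 LWT livers for complex I, 0.982 times for complex II, 0.994 times for complex III, 0.996 times for complex IV, 0.984 times for complex V and 0.948 times for the assembly factors. Each of these differences was smaller than the SD of either genotype.

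Ndufaf2, a chaperone of late steps in complex I assembly, had the smallest p. The gene spans 108139249 to 108295189 on the minus strand of chromosome 13 (GRCm39) and has 4 exons. It lay at 14.87 to 22.51 FPKM in Fgl1 LWT mice (median 17.1) and at 11.49 to 18.02 FPKM in Fgl1 LKO mice (median 14.3). Of the Fgl1 LKO livers, 7 of 8 fell under the Fgl1 LWT median, although the ranges overlapped. The log2 difference was -0.30 ± 0.10 (SE; limma p = 0.00966, adjusted p = 0.696; two-sided exact permutation p = 0.0166). Within the runs of mouse numbers it was 0.11 in that from 48 to 55 (1 Fgl1 LWT and 3 Fgl1 LKO mice), -0.27 in that from 60 to 64 (2 and 3) and -0.72 in that from 69 to 72 (2 and 2), so that its sign was not the same in each.

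Ndufa5, a subunit of the arm that reaches into the matrix, came next. It lay at 91.36 to 121.28 FPKM in Fgl1 LWT mice (median 92.7) and at 65.57 to 107.71 FPKM in Fgl1 LKO mice (median 81.6), with a log2 difference of -0.21 ± 0.10 (SE, limma adjusted p = 0.696). Of the Fgl1 LWT livers 5 lay between 91.36 and 93.69 FPKM, and the Fgl1 LKO livers fell on both sides of them. Ndufaf6, another assembly factor, lay at 6.24 to 8.6 FPKM in Fgl1 LWT mice (median 7.79) and at 5.68 to 8.04 FPKM in Fgl1 LKO mice (median 6.75). Atp5c1, the gamma subunit that turns inside the synthase, lay at 213.93 to 300.29 FPKM in Fgl1 LWT mice (median 252.2) and at 194.36 to 260.5 FPKM in Fgl1 LKO mice (median 235.4). Both overlapped between genotypes and had a log2 difference of -0.16 ± 0.08 (SE, limma adjusted p = 0.696 for each).

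Uqcrb, a small subunit of complex III, lay at 229.65 to 368.13 FPKM in Fgl1 LWT mice (median 275.8) and at 185.49 to 282.93 FPKM in Fgl1 LKO mice (median 244.5), again with overlap (-0.20 ± 0.10 SE, limma adjusted p = 0.700). Ndufa2, a supernumerary subunit of complex I, went the other way, at 90.17 to 121.06 FPKM in Fgl1 LWT mice (median 107.1) and at 96.65 to 138.92 FPKM in Fgl1 LKO mice (median 119.5). Of the Fgl1 LKO livers, 7 of 8 were above the Fgl1 LWT median (0.13 ± 0.07 SE, limma adjusted p = 0.707), a count that Cox6a1 and Atp5d shared. The others of the 10 with the smallest p were Cox7b (-0.13), Ndufb4 (-0.21), Ndufa7 (0.12) and Atp5j2 (-0.10), with limma adjusted p-values from 0.722 to 0.751. Over the 10, two-sided exact permutation p-values ran from 0.0166 to 0.168.

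**Figure D3:**
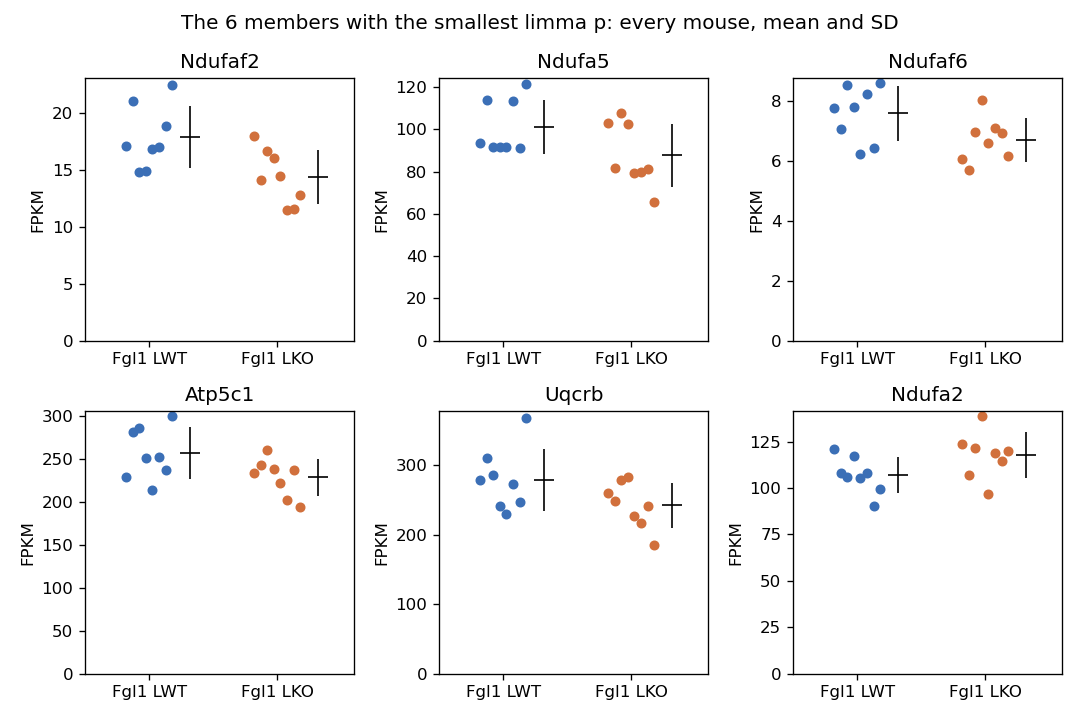
FPKM of the 6 members with the smallest limma p in each mouse (points), with the mean and SD of 8 mice per genotype (black). Genotypes overlap in each panel, and the mean of Ndufaf2 is 17.9 FPKM in Fgl1 LWT and 14.4 FPKM in Fgl1 LKO livers.

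Neighbouring mitochondrial genes were read from the same limma fit. In it 0 of the 12770 genes passed the adjusted threshold, so a count of 0 in any list was fixed and says nothing about that list. The lists held 18 carriers and nuclear subunits outside the rule, 50 other assembly factors, 18 regulators of mitochondrial biogenesis and 13 genes of the tricarboxylic acid cycle. After these came 28 genes of mitochondrial membranes and import, 78 mitochondrial and 82 cytosolic ribosomal proteins. At an unadjusted p of 0.05 these lists held, in this order, 2, 2, 1, 0, 2, 0 and 1 higher and 0, 1, 0, 0, 1, 2 and 1 lower genes. Over all genes, 4.64% were higher and 2.36% lower. Ppargc1a, a coactivator that drives mitochondrial biogenesis, was at 1.61 ± 0.637 and 1.2 ± 0.548 FPKM in Fgl1 LWT and Fgl1 LKO livers (limma adjusted p = 0.751). In the same order, Nrf1 was at 2.71 ± 0.238 and 3.06 ± 0.731 FPKM, Gabpa at 8.89 ± 1.49 and 8.53 ± 0.886 FPKM, Esrra at 12.4 ± 1.03 and 11.6 ± 3.49 FPKM and Tfam, which packages mitochondrial DNA, at 8.68 ± 1.04 and 7.91 ± 0.707 FPKM (SD over 8 mice each, limma adjusted p from 0.722 to 0.916).

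The members rose and fell together from liver to liver. With genotype means removed, the median Pearson r over the 3321 pairs of the 82 members of at least 10 FPKM was 0.57 across the 16 livers, and 96.9% of pairs were above 0. Over pairs of all 4241 genes of that level the median was 0.077, with 57.7% above 0. All pairs share the same 16 libraries, so these values are descriptions. With median ratios the medians were 0.52 and 0.018, with an equal sum per liver 0.64 and 0.25, and with the means of the runs removed as well 0.63 and 0.072.

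**Figure D4:**
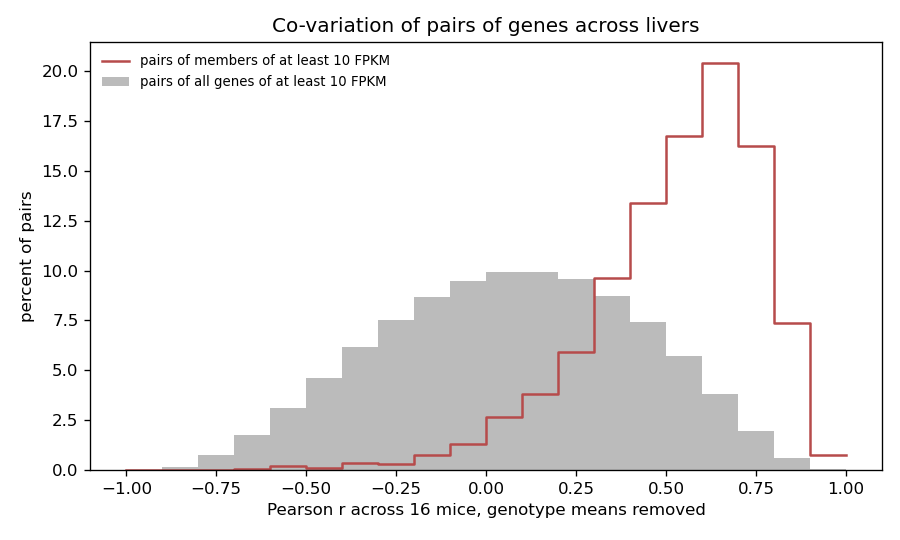
Percent of gene pairs (y axis) by Pearson r across 16 livers with genotype means removed (x axis, steps of 0.1). Pairs of members of at least 10 FPKM (red line) have a median of 0.57 and pairs of all genes of that level (grey bars) a median of 0.077.

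The co-variation crossed the borders of the complexes. Over the 90 members, the median r was 0.57 for pairs in the same complex and 0.52 for pairs from different ones. Complex II had the highest median (0.80 over 6 pairs), followed by complex V (0.64), complexes I and III (0.58 each), complex IV (0.50) and the assembly factors (0.29). It was 0.41 in the tricarboxylic acid cycle, 0.30 among cytosolic and 0.18 among mitochondrial ribosomal proteins of at least 10 FPKM. Closest to the mean of the other members were Atp5g3 (r = 0.93), Uqcrc1 (0.91) and Uqcrfs1 (0.90). Farthest from it were Ndufaf4 (-0.25), Ndufb4 (0.01), Cox6b2 (0.28), and Ndufaf2 and Ndufaf5 (0.29 each), of which 3 are assembly factors. The values of Ndufb4 are uncertain, as stated above.

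Livers at both ends differed in each of the 5 complexes. The median deviation of the 82 members from their 16-liver means, on the log2(FPKM + 1) scale, was highest in Fgl1 LKO replicate 4 (0.18, with 77 members above their mean), then in Fgl1 LKO replicate 3 (0.12, 77) and Fgl1 LWT replicate 6 (0.12, 70). It was lowest in Fgl1 LKO replicate 8 (-0.17, with 4 above), Fgl1 LKO replicate 5 (-0.16, 7), Fgl1 LWT replicate 5 (-0.13, 8) and Fgl1 LWT replicate 7 (-0.11, 11). High and low livers thus came from both genotypes. They were ranked by the same members that make up the complexes, so part of the likeness between complexes was fixed by the choice. With median ratios Fgl1 LWT replicate 8 was the highest (0.24, against 0.09 as deposited) and Fgl1 LKO replicate 8 the lowest (-0.13).

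**Figure D5:**
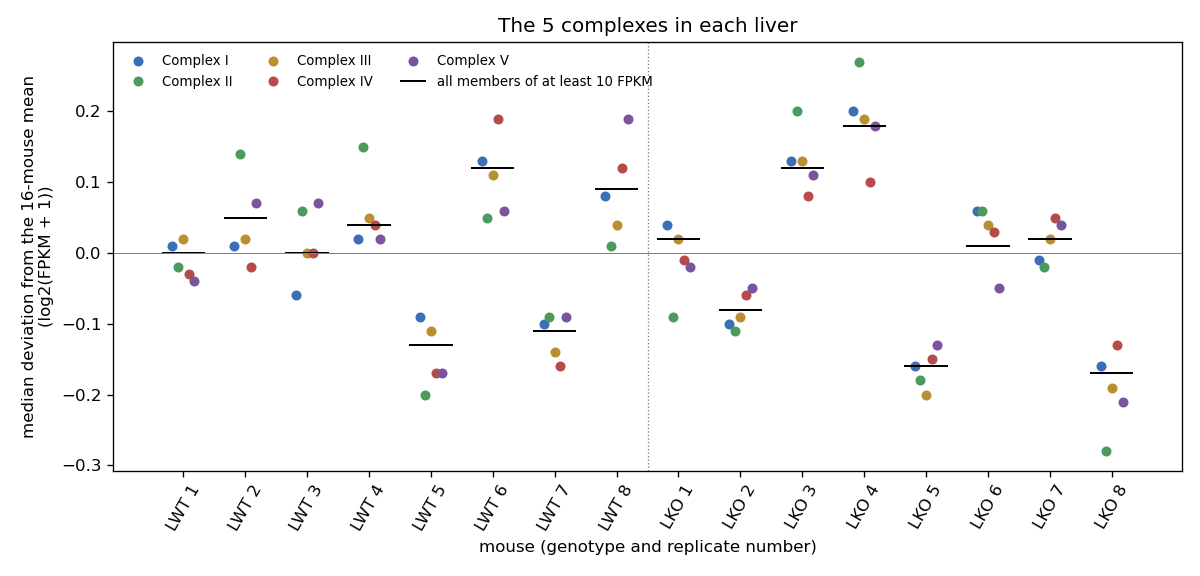
Median deviation of the members of at least 10 FPKM from their 16-mouse mean (log2(FPKM + 1)) in each liver, by complex (points) and over all of them (black lines). In Fgl1 LKO replicates 4 and 8, the livers with the highest and lowest lines (0.18 and -0.17), the 5 complexes lie on the same side of 0. The lines hold the same members as the points, so part of this was fixed by the choice.

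The genes of complex II, which also entered that ranking of the livers, were read one by one. In Fgl1 LKO replicates 4 and 8, Sdha was at 206.48 and 152.86 FPKM, Sdhb at 210.25 and 113.06 FPKM, Sdhc at 159.6 and 129.59 FPKM, and Sdhd at 202.15 and 125.7 FPKM. Sdhb had the widest range of the 4, with a highest level 1.86 times the lowest. Fgl1 LKO replicate 8 also had the lowest Esrra (4.79 FPKM) and Ppargc1a (0.39 FPKM) and the highest Nrf1 (4.68 FPKM) of the 16 livers. Its Gabpa (8.55 FPKM) lay inside the range of the other livers. In Fgl1 LKO replicate 5, the next lowest liver, Esrra was at 10.41 FPKM, Ppargc1a at 0.65 FPKM and Nrf1 at 2.85 FPKM. The part of these regulators was not tested.

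The spread of single members was near that of all genes of at least 10 FPKM, a set not matched to them in level. Their coefficient of variation over the 16 livers had a median of 10.7% at 10 FPKM or more, against 12.7% over all genes of that level. It ran from 6.48% in Cox7a2l to 22.6% in Ndufb4, whose values are uncertain, and reached 77.1% in the scarce Cox6b2.

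Outside the members, the genes most like their mean standardised level across the 16 livers, genotype means removed, were Micos10 (r = 0.93), of the cristae junctions, Park7 (0.89), a protein of oxidative stress defence, Idh3b (0.88), of the tricarboxylic acid cycle, Mrps5 (0.88), of the mitochondrial ribosome, and Cyc1 (0.87). Of 12680 genes, 59 were above 0.8 and 27 below -0.8. At the opposite end were Pzp (-0.91), Serpina10 (-0.88), and Mt1, Cp and Mt2 (-0.87 each), of which Cp (ceruloplasmin) and the metallothioneins Mt1 and Mt2 are known to rise in the acute-phase response. The median r was 0.60 for the tricarboxylic acid cycle, 0.59 for carriers and nuclear subunits outside the rule, 0.51 for membrane and import genes, 0.37 for other assembly factors, 0.27 for mitochondrial ribosomal proteins, 0.11 for regulators of biogenesis and 0.10 for cytosolic ribosomal proteins. Cell type markers also moved with the members, with a median r of 0.47 for hepatocyte (5 genes), 0.38 for sinusoidal endothelial (4), 0.32 for erythroid (5), 0.29 for stellate (4) and 0.12 for smooth muscle markers (3). It was -0.59 for neutrophil (2), -0.40 for cholangiocyte (4) and -0.04 for Kupffer cell markers (4), and the 1 gene kept had 0.61 for pancreatic acinar and -0.18 for T cells. Their part in the co-variation was not tested.

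The members were also set against Saa1, an acute-phase gene that hepatocytes induce in inflammation, a relation chosen after the values were seen. Saa1 ran from 63.77 to 16268.45 FPKM in Fgl1 LWT and from 68.44 to 7668.71 FPKM in Fgl1 LKO livers. In a limma fit with genotype and log2(Saa1 FPKM + 1), 84 of the 90 members had a slope below 0 (93.3%, against 68.5% of genes). The median slope was -0.025 log2 units per doubling of Saa1 + 1, against -0.010 over all genes. Past an adjusted p of 0.05, 3 members were lower at higher Saa1, against 1.03% of 12769 genes. They were Ndufs1 (-0.045 ± 0.010 SE, limma adjusted p = 0.0330), Uqcrc2 (-0.042 ± 0.010 SE, limma adjusted p = 0.0407) and Sdha (-0.046 ± 0.011 SE, limma adjusted p = 0.0416). At an unadjusted p of 0.05, 33 were lower, against 15.0% of genes, among them all 4 of complex II, 10 of 17 in complex V, 10 of 37 in complex I, 4 of 8 in complex III and 3 of 15 in complex IV. The assembly factor Ndufaf4 was the 1 member that was higher (1.11%, against 3.27% of genes).

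Within each genotype, the livers with the lowest and the highest Saa1 were Fgl1 LWT replicates 1 and 7 (63.77 and 16268.45 FPKM) and Fgl1 LKO replicates 3 and 5 (68.44 and 7668.71 FPKM). Ndufs1 (chromosome 1, 63182058 to 63216236, GRCm39) was at 39.36 and 36.16 FPKM in the Fgl1 LWT pair and at 47.53 and 38.48 FPKM in the Fgl1 LKO pair. Uqcrc2 (chromosome 7, 120233976 to 120260035) was at 111.11 and 99.85 FPKM and at 129.55 and 103.31 FPKM. Sdha (chromosome 13, 74469359 to 74498436) was at 175.06 and 138.16 FPKM and at 196.69 and 157.95 FPKM. In both pairs the 3 genes were lower in the liver with the higher Saa1. The genes were picked by their slopes over these same livers, so this order is no separate support. The livers of each pair also came from different runs of mouse numbers. The order was not strict, since Fgl1 LKO replicate 8, with the lowest median of the members, had a Saa1 of 2890.3 FPKM.

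The calls against Saa1 were not stable. In limma, 0 members passed with a term for the 4 runs, where 57 were lower and 0 higher at an unadjusted p of 0.05 (63.3% lower, against 7.98% of all genes). With median ratios 0 passed, and 7 were lower and 1 higher, or 7.78% lower against 7.42% of all genes, a share near the background. With an equal sum per liver 69 were lower (76.7%, against 22.9%), and with a replicate block 4 were (4.44%, against 4.28%). None passed without Fgl1 LWT replicate 2, 3, 4, 5 or 7 or without Fgl1 LKO replicate 3 or 4, where 22 to 37 were lower and at most 1 higher at an unadjusted p of 0.05 (24.4% to 41.1% lower, against 11.1% to 14.3% of all genes). Ndufs1 alone passed without Fgl1 LKO replicate 1 or 5, while 6 passed without Fgl1 LKO replicate 6 and 5 without Fgl1 LKO replicate 7. Over all genes, 211 of 12769 passed with every liver, 343 of 12789 without Fgl1 LKO replicate 6 and 463 of 12777 without Fgl1 LKO replicate 7. Without Fgl1 LKO replicate 1 or 5 they were 159 and 111, so the counts shifted over the whole table too. Markers of cell types had slopes in the same fit. At an unadjusted p of 0.05, 3 of 5 hepatocyte, 4 of 4 sinusoidal endothelial and 3 of 4 stellate cell markers were lower, 0 of 4 Kupffer cell markers were, and both neutrophil markers tested were higher. The summed level of the hepatocyte markers was 51478.9 to 86998.4 FPKM in Fgl1 LWT and 47039.1 to 69167.4 FPKM in Fgl1 LKO livers. That of the endothelial markers was 30.0 to 64.8 and 20.4 to 75.9 FPKM, that of the stellate cell markers 52.0 to 89.4 and 42.2 to 107.2 FPKM, and that of the neutrophil markers 0.66 to 31.9 and 3.00 to 26.0 FPKM. Their part in the result was not tested.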

How the data were processed

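Poly(A) RNA of 16 livers was sequenced from stranded paired-end libraries on the DNBSEQ platform, with 1 library per mouse. The authors filtered the reads, used HISAT (mm39) and Bowtie2 (reference genes) for alignment, and deposited FPKM values per gene, rounded to 2 decimals. Versions, annotation, the counting step and read totals are not given in the sources used here, so depth is unknown. Groups follow the genotype labels. P-values measure the spread between these mice.

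Differences were fitted on log2(FPKM + 1) with limma 3.58.1 in R 4.3.3 (eBayes with trend, two-sided, Benjamini-Hochberg adjustment over the 12770 genes, threshold 0.05), a scale that understates changes of low genes. Single genes were given exact permutation tests over 12870 assignments. The code of the fits was checked on simulated data with independent noise in each gene. That setting lacks the co-variation of the members, so it says nothing about small differences in them. Positions come from GENCODE vM39. Python 3.11.15 did the rest.

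The members and gene lists were chosen with earlier results of these data known. Named one by one were the 10 members with the smallest limma p and any past the threshold, the 3 highest and the lowest of each complex, core and catalytic subunits, isoform families, genes beside the 0.1 FPKM level, a few known regulators and the 5 genes most like the members. Other names were chosen after their values were seen. Not every gene the rule names is reported here. Alternatives covered the pseudocount, filter, scaling, replicate block, runs of mouse numbers, robust eBayes and each mouse left out.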

Additional observations from a re-analysis of the deposited data

Results flagged for a closer look

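In 8 of 184 groups of 8 mice (4.35%; chance alone gives about 1 in 20), 1 liver stood apart from the others of its genotype by Dixon's 95% criterion. In Fgl1 LWT livers, Atp5e and Ndufa3 were lowest in replicate 7, at 328 FPKM (next 417) and 249 FPKM (next 336). Ndufa8 and Ndufaf8 were highest in Fgl1 LWT replicate 6, at 134 FPKM (next 115) and 53.0 FPKM (next 40.9), and Ndufaf4 was lowest in Fgl1 LWT replicate 1, at 3.97 FPKM (next 5.33). In Fgl1 LKO livers, Ndufc1 was highest in replicate 4 at 176 FPKM (next 124), Ndufb11 lowest in replicate 8 at 152 FPKM (next 167) and Ndufaf5 lowest in replicate 2 at 1.04 FPKM (next 1.34).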

How the results depend on the processing

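Between genotypes, 0 members passed in limma in 27 of 27 alternatives, with 1 to 7 lower and 0 to 2 higher at an unadjusted p of 0.05 in the 26 refits. At most 1 gene of the whole table passed in any of these refits, so the count of 0 says little about stability. The median difference stayed between -0.04 and 0.01. The 10 members named by p kept their direction in 260 of 260 values, with a lowest limma adjusted p of 0.481 (Ndufaf2, -0.34 to -0.25). They were picked by p in the same livers that the refits reuse, so the kept direction says little about stability. Within the runs of mouse numbers Ndufaf2 was at 0.11, -0.27 and -0.72. Fgl1 stayed between -3.28 and -2.85. Against Saa1, the count of 3 members became 10 at an adjusted p of 0.1 and 15 with an equal sum per liver. It was 0 with median ratios (median slope -0.010), with a term for the runs of mouse numbers (-0.042) and without the run from 36 to 38 (-0.039). With 1 mouse left out it was 0 to 6. Over all genes, 211 of 12769 passed in the main fit, 471 of 12767 with an equal sum and 144 of 12756 with median ratios. The term for the runs left 20 genes, the fit without the run from 36 to 38 left 25, and 45 to 463 passed with 1 mouse left out. The cause was not tested, and these alternatives for Saa1 and Fgl1 were chosen after seeing the data. Most same-numbered mice did not deviate together (3 of 8 pairs above 0.1, r from -0.16 to 0.45, 1 of 8 closest to its own number). Some of these pairs also share a run of mouse numbers. The pair with r = 0.45 is replicate 5 of each genotype, mice 60 and 62. What such pairs have in common was not tested. A replicate block gave 0 members between genotypes (median -0.01, with 1 lower at an unadjusted p of 0.05) and 0 against Saa1 (4 lower and 0 higher). Over all genes, it left 3 calls against Saa1, where the main fit had 211, and gave 1 between genotypes, where the main fit had 0.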
